A study of Mus musculus with 8 samples.

Results

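The cyclins and Cdk1 are the core engine of the mammalian cell cycle. Their transcripts were followed here through the single cells of 8 mouse melanomas. The rows of the deposited tables with the symbols Ccnd1, Ccnd2, Ccnd3, Ccne1, Ccne2, Ccna2, Ccnb1, Ccnb2 and Cdk1 were taken, which gave 9 of 31,053 genes, 1 row for each symbol. A count is a number of unique molecular identifiers (UMIs), that is of captured transcript molecules, and the 28,411 cells kept held 130,099 UMIs of Ccnd2, 46,523 of Cdk1, 35,006 of Ccnd1, 22,949 of Ccnb2, 22,923 of Ccnb1, 16,006 of Ccna2, 15,343 of Ccnd3, 8074 of Ccne1 and 1961 of Ccne2.

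A cyclin has no kinase activity of its own and activates the cyclin-dependent kinase that it binds. D-type cyclins (Ccnd1 to Ccnd3) act in G1 with Cdk4 and Cdk6, respond to growth signals and start the phosphorylation of the retinoblastoma protein, which holds back the E2F transcription factors. E-type cyclins (Ccne1 and Ccne2) are E2F targets and act with Cdk2 at the entry into S phase, Ccna2 acts with Cdk2 and Cdk1 through S and G2, and the B-type cyclins (Ccnb1 and Ccnb2) bind Cdk1 and drive mitosis, at the end of which they are degraded. Genes of the G2 and mitosis programme are known to be read through CCAAT boxes, bound by NF-Y, and through the CHR element, bound by the MuvB complex with B-MYB or FOXM1.

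The tumours were B16F10 melanomas, a mouse line, grown under the skin of the flank to 300 mm3 in mice labelled as 12 weeks old, and 4 came from each host genotype. Atf4wt/wt hosts carried Rosa26::CreERT2 and intact Atf4, and Atf4D/D hosts carried the same Cre with both Atf4 alleles floxed at exons 2 and 3; both were given tamoxifen. The Atf4wt/wt hosts were 2 males and 2 females and the Atf4D/D hosts 3 males and 1 female, so the sexes are not balanced. This Cre acts in the whole host and not in the injected cells, which keep Atf4. Each tumour gave 1 droplet library of 3′ transcript ends and 37,283,598 to 74,942,137 UMIs in Atf4wt/wt and 40,492,910 to 55,655,925 in Atf4D/D hosts, and the medians per kept cell lay between 7848 and 11,054.5 UMIs.

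Cells were clustered without the 9 genes, so that these did not define any class. By markers, 23,694 cells were melanoma-like (2149 to 4822 per tumour), 898 immune-like (35 to 220), 734 like cancer-associated fibroblasts (CAF-like, 10 to 243) and 33 endothelial-like. Another 2812 cells in 3 clusters with few UMIs stayed unnamed, and 240 of a cluster with a high mitochondrial share, 230 of them from Atf4wt/wt replicate 4, were removed. Atf4 itself was lower in the host cells of Atf4D/D tumours without overlap, at 89.9 to 171 against 270 to 323 counts per 1000000 (CPM) in CAF-like and 54.7 to 94.0 against 224 to 293 CPM in immune-like cells, and overlapped in melanoma-like cells (311 to 442 against 262 to 410 CPM), as the labels describe. Any 2 libraries shared 2 to 14 cell barcodes.

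The promoters show which of these elements the members carry. The 250 bases before the start in RefSeq's annotation of GRCm38.p6 were at hand for 5 of the 9 members, and those of 4 are printed, 3 that peak in G2 and M and the S phase cyclin Ccne1 for comparison. Capitals mark CCAAT (or ATTGG, the same box on the other strand), the CHR spelling TTTGAA, and the E2F spelling TTTCGCGC.
Ccnb2, chr9:70421555-70421804, minus strand: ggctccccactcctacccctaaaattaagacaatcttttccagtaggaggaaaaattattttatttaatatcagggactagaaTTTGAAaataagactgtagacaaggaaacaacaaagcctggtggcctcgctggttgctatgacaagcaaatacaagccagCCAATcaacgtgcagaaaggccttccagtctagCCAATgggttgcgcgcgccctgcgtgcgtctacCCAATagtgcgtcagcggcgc
Cdk1, chr10:69352913-69353162, minus strand: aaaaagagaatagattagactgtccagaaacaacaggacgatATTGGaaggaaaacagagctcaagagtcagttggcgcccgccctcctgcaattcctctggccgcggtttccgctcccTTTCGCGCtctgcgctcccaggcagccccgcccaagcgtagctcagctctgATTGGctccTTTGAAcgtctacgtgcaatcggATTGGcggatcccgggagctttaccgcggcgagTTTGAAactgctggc
Ccnb1, chr13:100786487-100786736, minus strand: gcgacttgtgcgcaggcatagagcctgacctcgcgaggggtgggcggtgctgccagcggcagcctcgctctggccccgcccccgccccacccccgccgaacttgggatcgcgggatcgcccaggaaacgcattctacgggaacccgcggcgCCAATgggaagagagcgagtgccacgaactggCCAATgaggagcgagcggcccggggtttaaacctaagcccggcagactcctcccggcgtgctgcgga
Ccne1, chr7:38107491-38107740, minus strand: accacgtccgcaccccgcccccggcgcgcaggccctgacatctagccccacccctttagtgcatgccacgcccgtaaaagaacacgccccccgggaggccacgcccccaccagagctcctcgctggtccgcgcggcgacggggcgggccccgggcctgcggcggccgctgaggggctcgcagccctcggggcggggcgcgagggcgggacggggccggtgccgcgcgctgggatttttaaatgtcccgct

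Both strands were searched for CCAAT, for TTTGAA and TTCGAA (CHR), and for TTTCCCGC, TTTCGCGC, TTTGCCGC and TTTGGCGC (E2F), and no match overlapped another. Ccnb2 held 3 CCAAT boxes at 87, 54 and 21 bases before the start and TTTGAA at 167 bases, and another TTTGAA lay 5 bases past the start, outside the window printed and counted. Cdk1 held 3 CCAAT boxes on the opposite strand at 208, 80 and 48 bases, TTTGAA at 71 and 15 bases and TTTCGCGC at 131 bases. Ccnb1 held 2 CCAAT boxes at 99 and 67 bases. Ccne1 matched none of the spellings. Of 32,851 promoters of the same length, 33.8% held a CCAAT box, 10.1% at least 2, 2.79% at least 3, 17.1% a CHR spelling, 6.02% a CCAAT box with a CHR spelling, and 1.86% an E2F spelling. Ccnd3 has 2 annotated starts, of which the one at chr17:47593217-47593466 held 1 CCAAT box at 108 bases and the other none of the motifs. A match is a run of letters and does not show binding.

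The members lie on 8 chromosomes of GRCm38, in the GENCODE M21 annotation. On the plus strand are Ccnd3 (ENSMUSG00000034165, chr17:47505051-47599691) and Ccne2 (ENSMUSG00000028212, chr4:11191351-11204779). On the minus strand are Ccnd1 (ENSMUSG00000070348, chr7:144929931-144939925), Ccnd2 (ENSMUSG00000000184, chr6:127125162-127152193), Ccne1 (ENSMUSG00000002068, chr7:38097984-38107534), Ccna2 (ENSMUSG00000027715, chr3:36564865-36572150), Ccnb1 (ENSMUSG00000041431, chr13:100778650-100786570), Ccnb2 (ENSMUSG00000032218, chr9:70407692-70421547) and Cdk1 (ENSMUSG00000019942, chr10:69335146-69352938). Ccnd1 and Ccne1 share chromosome 7 but are far apart.

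The first question was how each member follows the cell cycle of the melanoma-like cells. Every cell received an S score over 42 genes and a G2M score over 52 genes, lists from which the members had been taken out, and a cut at 0 in each score gave 4 states. Neither score was positive in 11,688 cells (median 8878 UMIs), S alone in 3576 (11,312.5 UMIs), both in 6289 (13,257 UMIs) and G2M alone in 2141 (10,613 UMIs). These states are ranges of 2 scores and not cell types, and 2827 cells of Atf4wt/wt and 2374 of Atf4D/D tumours lay within 0.05 of a cut. Counts were summed per tumour and state, so that n is 8 tumours in each state, and compared within tumours with edgeR's quasi-likelihood test and Benjamini-Hochberg adjustment over 11,267 genes. The 3 comparisons with the cells in neither state share those cells. The scores are made of other cell cycle genes, which vary together with the members, so the states are not independent of them.

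The members were highest in different states. The E-type cyclins were highest in S-only cells, Ccnb1 and Ccnb2 in G2M-only cells, Ccna2 and Cdk1 in the G2M states, Ccnd1 and Ccnd3 in S-only cells like the E-type cyclins, and Ccnd2 ran the other way with its highest level in the cells in neither state. Against those cells, 8 members rose and 1 fell in S-only cells, where 33.7% of all genes rose and 32.3% fell. In cells with both scores positive 7 rose and 2 fell (37.6% and 38.8% of all genes), and in G2M-only cells 4 rose and 3 fell (29.4% and 25.9%). Between G2M-only and S-only cells 4 rose and 5 fell (21.7% and 21.8%). The log2 differences there were 2.47 ± 0.063 for Ccnb1, 2.21 ± 0.059 for Ccnb2, 1.99 ± 0.058 for Ccna2 and 1.23 ± 0.047 for Cdk1. They were −3.58 ± 0.177 for Ccne2, −2.86 ± 0.090 for Ccne1, −1.13 ± 0.049 for Ccnd1, −0.64 ± 0.031 for Ccnd2 and −0.57 ± 0.058 for Ccnd3 (highest adjusted p = 5.13e-12).

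**Figure D1:**
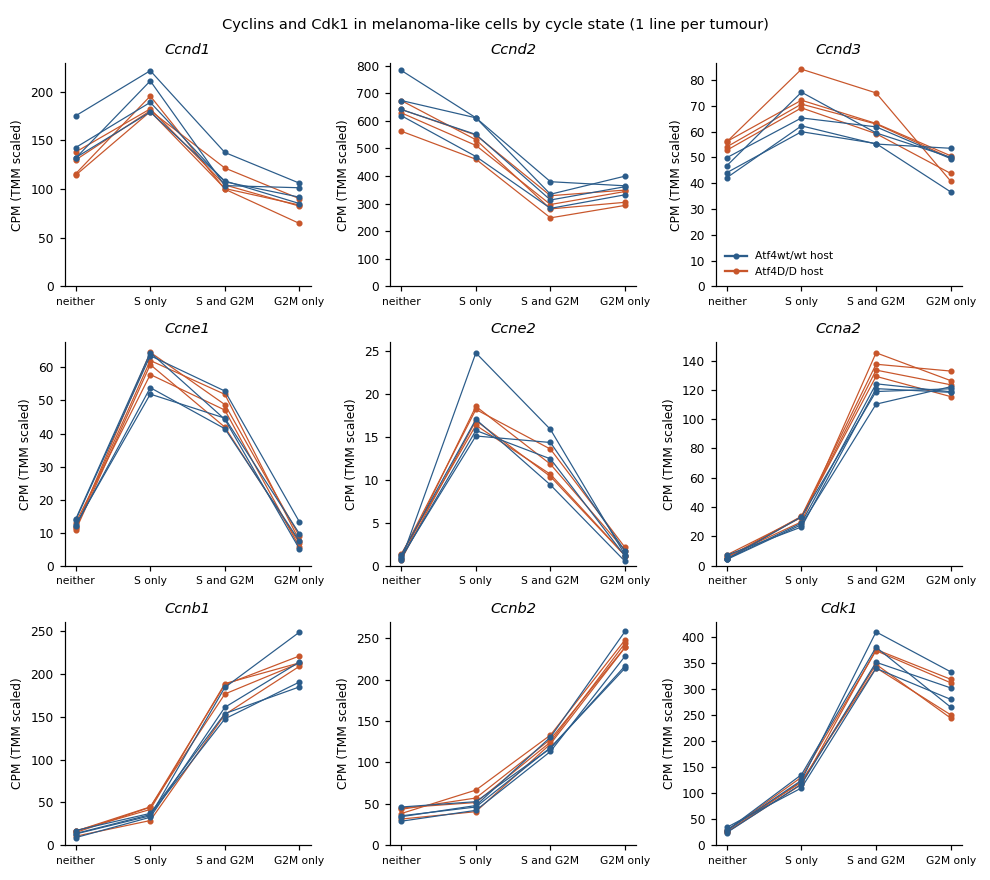
Level of each member (CPM, linear axes from 0) in the 4 states of the melanoma-like cells, with 1 line per tumour coloured by host genotype. Ccne1 and Ccne2 stand highest in S only, Ccnb1 and Ccnb2 in G2M only, and Ccnd2 in neither state.

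Ccne1 and Ccne2 marked the S phase cells. Ccne1 stood at 59.9 ± 4.87 CPM (SD, n = 8) in S-only cells, with a lowest tumour at 51.9, a median of 61.5 and a highest at 64.6, and at 12.4 ± 1.19 CPM (10.8, 12.2 and 14.1) in neither state. Ccne2 stood at 17.8 ± 3.03 CPM (15.1, 17.0 and 24.8) in S-only cells and at 0.985 ± 0.278 CPM (0.701, 0.925 and 1.36) in neither state. The lowest S-only tumour was above the highest tumour in neither state for both genes. The log2 differences were 2.27 ± 0.056 (SE, adjusted p = 3.78e-38) for Ccne1 and 4.12 ± 0.123 (adjusted p = 2.45e-34) for Ccne2, that is 4.81-fold and 17.3-fold in the fit. With both scores positive the levels were 46.6 ± 4.29 and 12.3 ± 2.19 CPM. In G2M-only cells both genes were back near the level of the cells in neither state, Ccne1 at 8.05 ± 2.60 CPM, a fall of 1.51-fold (log2 −0.60 ± 0.112, adjusted p = 1.04e-05, lower in 8 of 8 tumours), and Ccne2 at 1.35 ± 0.497 CPM (0.53 ± 0.293, adjusted p = 0.121, higher in 6 of 8). The fall of Ccne1 depends on how the cells with both scores positive are assigned. With phases called by the higher score, those cells are divided between S and G2M. The G2M cells were then above the cells in neither phase (log2 0.58, edgeR's adjusted p = 1.04e-09).

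Ccna2 stepped up over both phases. It stood at 5.54 ± 1.28 CPM (4.29, 5.09 and 7.42) in neither state, at 30.9 ± 2.87 (26.4, 31.4 and 33.8) in S-only cells, at 127 ± 11.2 (110, 127 and 145) with both scores positive and at 122 ± 5.44 (115, 121 and 133) in G2M-only cells. The last 2 states overlapped within their spread, and the others did not. Against neither state the log2 differences were 2.43 ± 0.08 (adjusted p = 2.08e-32), 4.49 ± 0.055 (adjusted p = 4.33e-53) and 4.42 ± 0.065 (adjusted p = 5.78e-49).

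The B-type cyclins differed from each other and from their kinase. Ccnb1 stood at 13.8 ± 2.99 CPM (8.76, 14.1 and 17.1) in neither state, 37.4 ± 5.73 (28.7, 36.4 and 44.7) in S-only cells, 169 ± 17.1 (148, 169 and 189) with both scores positive and 212 ± 19.5 (185, 213 and 249) in G2M-only cells. Ccnb2 stood at 37.9 ± 6.42 CPM (28.9, 36.8 and 46.1), 50.5 ± 8.48 (40.5, 49.7 and 66.5), 123 ± 6.99 (113, 123 and 133) and 236 ± 15.4 (214, 239 and 258) in the same order. From neither state to G2M only, Ccnb1 thus rose 15.04-fold (log2 3.91 ± 0.063, adjusted p = 2.3e-47) and Ccnb2 6.15-fold (2.62 ± 0.053, adjusted p = 1.96e-42), without overlap. Ccnb2 moved little on entry into S (0.41 ± 0.064, adjusted p = 1.45e-07, higher in 8 of 8 tumours, with overlapping ranges), while Ccnb1 rose 2.71-fold there (1.44 ± 0.080, adjusted p = 2.42e-22).

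By these states Cdk1, the mitotic kinase, was highest with both scores positive, and its B-type cyclins in G2M-only cells. In the finer sectors described below, Cdk1 had its highest mean level in the same sector as Ccnb1. Cdk1 stood at 27.6 ± 3.23 CPM (24.1, 27.8 and 34.2) in neither state and already at 122 ± 8.10 (110, 122 and 135) in S-only cells. With both scores positive it reached 365 ± 24.3 CPM (339, 362 and 409), and in G2M-only cells it was at 288 ± 33.1 (244, 291 and 333). All 4 states were apart, with the lowest tumour with both scores positive above the highest G2M-only tumour, a pair that was not tested. The log2 differences from neither state were 2.12 ± 0.054 (adjusted p = 8.46e-38), 3.70 ± 0.045 (adjusted p = 3.15e-53) and 3.36 ± 0.051 (adjusted p = 1.86e-48).

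The D-type cyclins each followed a course of their own. Ccnd1 stood at 135 ± 19.0 CPM (114, 132 and 175) in neither state, 192 ± 16.1 (179, 186 and 222) in S-only cells, 110 ± 12.9 (99.8, 106 and 138) with both scores positive and 88.0 ± 12.7 (64.6, 87.5 and 106) in G2M-only cells. Ccnd3 stood at 50.2 ± 5.42 CPM (42.1, 51.3 and 56.1), 69.8 ± 7.73 (59.9, 69.9 and 84.1), 61.5 ± 6.25 (55.1, 60.6 and 74.95) and 46.8 ± 5.79 (36.6, 49.6 and 53.5). Both were thus highest in S-only cells, by 1.42-fold for Ccnd1 (0.51 ± 0.037, adjusted p = 1.24e-17) and 1.37-fold for Ccnd3 (0.46 ± 0.044, adjusted p = 1.59e-13) over neither state. Ccnd1 then fell 1.54-fold below neither state in G2M-only cells (−0.62 ± 0.048, adjusted p = 1.53e-16), and Ccnd3 was at −0.11 ± 0.055 (adjusted p = 0.0894, higher in 2 of 8 tumours).

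Ccnd2 was highest where neither score was positive, a range that can hold G1 cells of cycling tumour cells and that held 649 cells of the cluster led by Cenpa, Cdkn3 and Cdc20. It stood at 652 ± 63.1 CPM (562, 641 and 782) in neither state, 537 ± 56.3 (461, 540 and 611) in S-only cells, 308 ± 40.1 (248, 305 and 379) with both scores positive and 343 ± 34.0 (293, 346 and 399) in G2M-only cells. Neither state and S only overlapped, as did the 2 G2M states, and between these pairs there was a gap. The fall from neither state was 1.22-fold in S-only cells (−0.28 ± 0.027, adjusted p = 1.47e-13), 2.13-fold with both scores positive (−1.09 ± 0.027, adjusted p = 6.87e-39) and 1.90-fold in G2M-only cells (−0.92 ± 0.030, adjusted p = 8.39e-33), lower in 8 of 8 tumours each time.

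The states differ in UMIs per cell, so the shares of cells with a UMI were also taken after thinning every cell to 3000 UMIs. Cdk1 was then found in 7.76 ± 1.05% of cells in neither state, 28.6 ± 3.14% in S only, 58.9 ± 2.50% with both scores positive and 46.9 ± 4.73% in G2M only (SD, n = 8 tumours). For Ccnb2 the shares were 9.43 ± 1.87%, 14.3 ± 2.86%, 30.1 ± 0.93% and 49.4 ± 2.34%, and for Ccnd2 78.9 ± 3.31%, 74.1 ± 3.99%, 55.5 ± 4.40% and 59.8 ± 3.61%. The order of the states was that of the levels for these 3 genes. Even in S-only cells Ccne2 was found in 4.05 ± 0.566% and Ccne1 in 14.8 ± 0.877% of cells, so at this depth most S-only cells had no UMI of a given E-type cyclin. In neither state they were found in 0.251 ± 0.124% and 3.45 ± 0.387% of cells.

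A finer order came from the angle of the scores. The S and G2M scores, each divided by its SD, place every cell on a circle, which was divided into 12 sectors of 30 degrees, numbered from 0. Mean levels over the 8 tumours peaked in sector 2 for Ccnd1 (198 CPM), sector 3 for Ccnd3 (74.1), sector 4 for Ccne1 (85.5) and Ccne2 (28.4), sector 6 for Cdk1 (445), Ccna2 (153) and Ccnb1 (256), sector 9 for Ccnb2 (242) and sector 11 for Ccnd2 (659). By peak the order over the sectors thus ran from the D-type Ccnd1 and Ccnd3 through the E-type cyclins to Cdk1, Ccna2 and Ccnb1, then Ccnb2, with Ccnd2 highest on both sides of sector 0. Ccne1 peaked in sector 4 and Cdk1 in sector 6 in 8 of 8 tumours, and Ccna2 in sector 6 in 7 of 8. Ccnd1 peaked in sectors 1 to 3, Ccnd3 in 2 to 4, Ccne2 in 3 or 4, Ccnb1 in 6 or 7 and Ccnb2 in 7 to 9, so the order between such neighbours is within the spread over tumours. Ccnd2 peaked in sector 1 in 4 of 8 tumours and in sectors 0 or 11 in the others, and its means in sectors 11, 0 and 1 (659, 641 and 640 CPM) were closer than their SD.

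Ccnb2 and Cdk1 came apart as the G2M score fell. In sectors 8 and 9, where the median G2M score was 0.137 and 0.0254, Ccnb2 stood at 234 ± 39 and 242 ± 8.5 CPM, as high as in sector 7 (239 ± 20), while Cdk1 fell from 360 ± 29 CPM in sector 7 to 116 ± 27 and 59.95 ± 10. These sectors hold 378 and 253 cells, against 8467 in sector 11, where Ccnb2 was at 29.7 and Cdk1 at 24.6 CPM. Sector 11 also held the lowest mean levels of Ccna2 (4.25 CPM) and Ccnb1 (10.9 CPM).

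**Figure D2:**
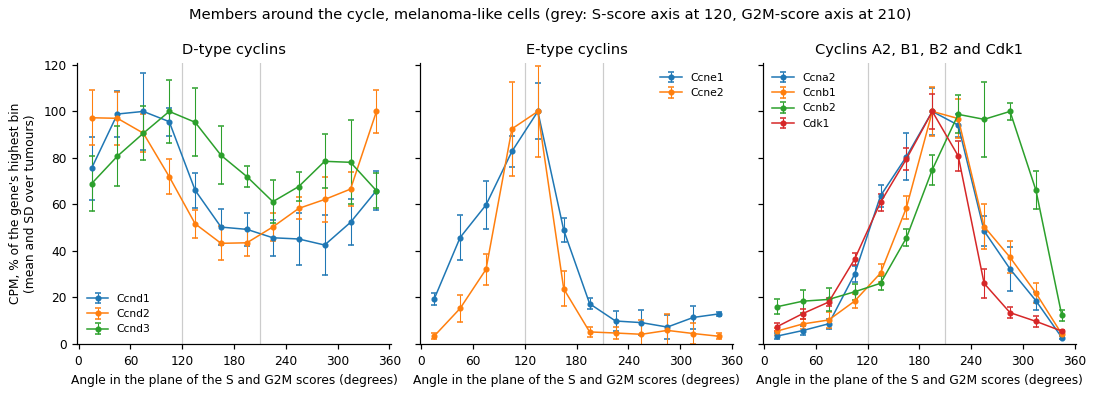
Mean level of each member over 8 tumours, as a percent of its highest sector with the SD as bars, against the angle of the S and G2M scores in degrees, where sector 0 begins at 0 and each of the 12 sectors spans 30 degrees. The mean levels of the E-type cyclins peak in sector 4 and those of Cdk1, Ccna2 and Ccnb1 in sector 6. Ccnb2 is high over sectors 7 to 9, and Cdk1 is already low in sector 9.

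The same split showed between melanoma-like clusters, here given as a description, since clusters gather like cells by their genes. In the cluster led by Cenpa, Cdkn3 and Cdc20 (3013 cells) Ccnb2 was at 197 CPM and Cdk1 at 96.0 CPM. In the cluster led by Fam83d, Nusap1 and Cenpf (2543 cells) Ccnb2 was at 184 and Cdk1 at 516 CPM, with Ccnb1 at 278 and Ccna2 at 163 CPM. Ccnb1 and Ccna2 were at 114 and 77.6 CPM in the former. Of its cells 33.6% were G2M only, 32.3% had both scores positive and 21.5% had neither. The cluster led by Cdc6, Ung and Uhrf1 (3612 cells) held Ccne1 at 77.3 and Ccne2 at 23.7 CPM, and Ccnd2 was at 723 CPM in the cluster led by Fgf21 and at 664 CPM in the one led by Kcnj13.

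The genes most like each member were taken by Pearson's r of log levels over 80 sums, 1 for each tumour and melanoma-like cluster, among 5837 genes. These sums share libraries and clusters, so r is a description without a test. Ccne1 was nearest to E2f1 (0.93), Slbp (0.91) and Cdt1 (0.91), and Ccne2 to Slbp (0.95), Cdt1 (0.93) and E2f1 (0.92). Ccna2 was nearest to Cdca8 (0.99), Mki67 (0.98) and Kif4 (0.98), and Cdk1 to Sgo2a (0.99), Smc4 (0.98) and Top2a (0.98). Ccnb1 was nearest to Hmmr, Racgap1 and Birc5 (0.98 each), and Ccnb2 to Cenpa (0.96), Knstrn (0.96) and Cdca3 (0.95). Ccnd2 was nearest to Mxd4 (0.89), Smim10l1 (0.89) and Scand1 (0.88). For Ccnd3 (Pdcd5 0.73, Rpf2 0.69 and Eif3b 0.69) and Ccnd1 (Wtip 0.64, Pfn2 0.58 and Atp6v0e 0.57) no gene came as near. Among the members r was 0.97 for Ccna2 with Ccnb1, 0.95 for Ccna2 with Cdk1, 0.91 for Ccne1 with Ccne2, 0.76 for Ccnb2 with Cdk1 and −0.91 for Ccnd2 with Ccnb1.

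The rest of the pathway was followed through 48 genes in 7 lists of kinases, other cyclins, inhibitors, Cdk1 regulators, pocket proteins and E2Fs, MuvB, MYB and FOXM1, and degradation, of which 43 could be tested between states. Another 5 listed genes were part of the score lists and were left out. Of the 43, 26 rose and 11 fell in S-only cells against neither state (33.7% and 32.3% of all genes), 32 and 8 with both scores positive (37.6% and 38.8%), 25 and 5 in G2M-only cells (29.4% and 25.9%), and 15 rose and 19 fell from S only to G2M only (21.7% and 21.8%). All 4 genes that add or remove the inhibitory phosphates of Cdk1 rose in all 3 cycling states, among them the inhibitory kinase Wee1 (log2 1.63 in S only, 1.43 in G2M only) and the phosphatases Cdc25a (1.88 in S only) and Cdc25b (3.46 in G2M only). Of 12 pocket proteins and E2Fs 9 rose and 1 fell in S-only cells, led by E2f2 (4.65), E2f7 (3.39) and E2f1 (2.77). Among 7 genes of the MuvB, MYB and FOXM1 list, 5 rose and 1 fell in S-only cells, with Mybl2 at 3.11, and 5 rose in G2M-only cells, with Foxm1 at 2.75.

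The inhibitors split between the phases. Of 4 that could be tested, 3 fell and 1 rose in S-only cells (Cdkn1a −1.31, Cdkn1b −0.93, Cdkn2c 0.28), and from S only to G2M only all 4 rose (Cdkn2d 1.60, Cdkn1b 1.03). Ccng2, a cyclin linked to cell cycle exit, fell by 1.61 in S-only cells, and Ccnf, which marks S to G2 regulators for degradation, rose by 1.79 there and by 3.76 in G2M-only cells. Cdkn2a, the p16 and p19 gene, had 1 UMI and Cdkn2b and Ccnb3 had 0 UMIs in all melanoma-like cells, and Cdkn1c (18 UMIs) and Ccna1 (45 UMIs) were also too low to test.

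The comparison the study was built on is that of the hosts. In melanoma-like cells 0 of the 9 members passed the threshold between Atf4D/D and Atf4wt/wt tumours (edgeR with Benjamini-Hochberg adjustment, 0.0319% of 12,554 genes called), and none stood apart without overlap between the hosts, against 6.39% of all genes. Only Ccnd3 had an unadjusted p under 0.05. DESeq2 called 0 members as well, as did edgeR with sex as a covariate, there and in the other sets of cells compared between hosts. A p above the threshold does not show that the hosts are alike.

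Ccnd3 stood at 56.6, 49.4, 54.8 and 50.2 CPM in the 4 Atf4wt/wt tumours and at 64.8, 55.9, 58.9 and 59.9 CPM in the 4 Atf4D/D tumours, with means of 52.7 ± 3.49 and 59.9 ± 3.66 (SD). The ranges overlapped by 1 tumour of each host, and the log2 difference was 0.18 ± 0.070 (SE, adjusted p = 0.385). Cdk1 stood at 185, 193, 158 and 175 CPM in Atf4wt/wt and at 182, 141, 171 and 188 in Atf4D/D tumours (−0.06 ± 0.094, adjusted p = 0.843). Ccnd1 stood at 131, 127, 131 and 165 against 116, 119, 131 and 127 CPM (−0.17 ± 0.086, adjusted p = 0.486). The ranges of the hosts overlapped for both genes. The other members had log2 differences between −0.14 ± 0.124 (Ccne2) and 0.15 ± 0.104 (Ccna2), with adjusted p from 0.604 to 0.953.

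Split by state, 1 member was apart between hosts outside the cycling states and 1 within them, and neither was called. In melanoma-like cells in neither state 0 of 9 members were called by edgeR (0.0429% of 11,659 genes) or DESeq2, with 2 at an unadjusted p under 0.05 (Ccnd3 and Ccnd1). Ccnd3 stood there at 49.6, 43.9, 46.5 and 41.1 CPM in Atf4wt/wt and at 55.7, 52.5, 53.5 and 55.7 CPM in Atf4D/D tumours, without overlap, which 6.38% of all genes also showed. The log2 difference was 0.26 ± 0.074 (adjusted p = 0.262, edgeR). In the cells of the 3 cycling states 0 of 9 members were called, as were 0 of 11,768 genes (0%), with 1331 genes at an unadjusted p under 0.05. DESeq2 called 68 genes higher and 36 lower in Atf4D/D there, 0 of them a member. Ccna2 stood at 94.9, 97.1, 91.2 and 91.8 CPM in Atf4wt/wt and at 109, 98.2, 103 and 110 CPM in Atf4D/D tumours (6.41% of all genes without overlap), with a log2 difference of 0.16 ± 0.059 (adjusted p = 0.336, edgeR). These 2 genes were picked for not overlapping, and whether they differ more in one set of cells than another was not tested.

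The shares of melanoma-like cells in the states did not separate the hosts. After thinning to 3000 UMIs, which left out 246 Atf4wt/wt and 184 Atf4D/D cells with fewer, neither state held 49.2 ± 6.29% in Atf4wt/wt and 49.4 ± 5.37% in Atf4D/D tumours (SD, n = 4 each, exact two-sided permutation test, p = 0.971). S only held 16.9 ± 2.45% and 16.3 ± 1.81%, both scores 24.8 ± 2.84% and 24 ± 3.35%, and G2M only 9.13 ± 1.81% and 10.3 ± 0.571%. The smallest p of the 4 exact permutation tests was 0.314 for G2M only (adjusted 0.952), and 70 assignments cannot go below 0.0286. Without thinning the shares were 50.3% and 50.2%, 14.9% and 14.7%, 26.5% and 25.8%, and 8.24% and 9.33%.

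In CAF-like cells 0 of the 7 members tested were called between hosts by edgeR (0.0643% of 4667 genes) or DESeq2, with 1 at an unadjusted p under 0.05. Ccnd2 stood apart, at 348, 294, 356 and 328 CPM in Atf4wt/wt and at 457, 366, 574 and 528 CPM in Atf4D/D tumours, where 3.6% of all genes did so. The log2 difference was 0.50 ± 0.168 (adjusted p = 0.602, edgeR). The Atf4D/D tumour at 574 CPM rests on 10 CAF-like cells and 23 UMIs of Ccnd2, and without it the log2 difference was 0.45 (adjusted p = 0.493). Ccnd2 was high in the CAF-like cells led by Grem1, which made up 20.8%, 5.88%, 25.0% and 7.14% of CAF-like cells in Atf4wt/wt and 31.0%, 26.5%, 20% and 24.3% in Atf4D/D tumours. Their part in the difference was not tested. Cdk1 stood at 122, 116, 88.0 and 157 against 90.1, 119, 125 and 95.8 CPM (−0.26 ± 0.205, adjusted p = 0.918), with overlapping ranges. The other 5 members tested also overlapped, from −0.53 ± 0.365 for Ccna2 and −0.38 ± 0.337 for Ccnb2 through −0.13 ± 0.401 for Ccnb1 and 0.0079 ± 0.237 for Ccnd3 to 0.29 ± 0.414 for Ccnd1 (adjusted p of 0.878 or more). Ccne1 (11.3 ± 6.58 against 20.7 ± 4.52 CPM) and Ccne2 (2.22 ± 2.78 against 2.79 ± 2.31 CPM) were too low to test.

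In immune-like cells 0 of the 6 members tested were called by edgeR (0.0306% of 3267 genes) or DESeq2, with 0 at an unadjusted p under 0.05, and none was without overlap (6.24% of all genes). Cdk1 stood at 133, 24.9, 108 and 98.3 CPM in Atf4wt/wt and at 94.7, 101, 237 and 103 CPM in Atf4D/D tumours, and Ccnd2 at 257, 74.6, 154 and 201 against 124, 184, 37.4 and 99.6 CPM. The spread within a host was wide, and the log2 differences were 0.22 ± 0.355 (adjusted p = 0.88) and −0.61 ± 0.354 (adjusted p = 0.54). The others ran from −0.25 ± 0.274 for Ccnd3 and −0.038 ± 0.343 for Ccnb1 to 0.15 ± 0.355 for Ccnd1 and 0.18 ± 0.372 for Ccnb2 (adjusted p of 0.793 or more). Ccna2 (33.1 ± 27.2 against 56.0 ± 50.5 CPM), Ccne1 (14.7 ± 12.1 against 2.81 ± 3.83 CPM) and Ccne2 (1.00 against 11.3 CPM) were too low to test. In immune-like cells all 9 macrophage (TAM) markers together stood at 9627 to 15,796 CPM in Atf4wt/wt and 16,190 to 22,721 CPM in Atf4D/D tumours. The cells led by Fcna and Vcam1 made up a median of 26.2% of immune-like cells in Atf4wt/wt and 42.6% in Atf4D/D tumours. Of the 9 markers, 6 were found in at least 10% of the cells led by Dmkn and Hp, and 1 in at least 50%. In the cells led by Fcna and Vcam1 these counts were 9 and 8. For the cells led by Dmkn and Hp, which stayed unnamed, the median shares were 38.3% and 20.4%. The ranges of the hosts overlapped for both shares. Whether the make-up of these cells differs between hosts, and its part in these values, was not tested. Of the 48 pathway genes 0 were called by edgeR between hosts in any of the 5 sets of cells, with 6 to 43 tested and 0 to 7 at an unadjusted p under 0.05.

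**Figure D3:**
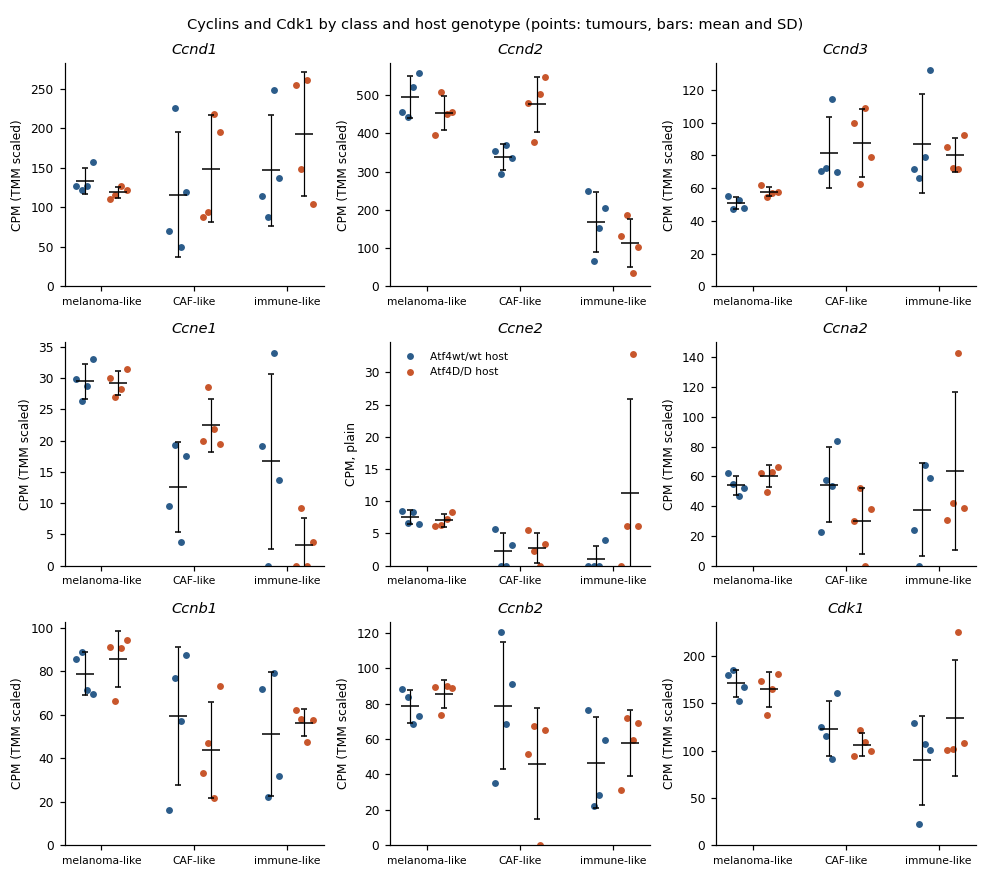
Level of each member (CPM) in melanoma-like, CAF-like and immune-like cells, 1 point per tumour, Atf4wt/wt and Atf4D/D side by side with the mean and SD of 4 tumours as bars. The hosts overlap for each member in each class, apart from Ccnd2 and, at this scaling and untested, Ccne1 in CAF-like cells.

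Between tumour, stromal and immune cells, Ccnd2 in immune-like cells stood below the other 2 classes without overlap, and the mitotic genes overlapped. Ccnd3 in melanoma-like cells stood below both host classes without overlap at TMM scaling, but not below CAF-like cells in plain CPM. All 3 classes were put in 1 fit over 6013 genes, with the tumour as a block, in which 8 members could be tested and Ccne2 was too low. The 3 comparisons share these sums. In CAF-like against melanoma-like cells 1 member rose and 3 fell (32% of all genes rose and 32.5% fell). In immune-like against melanoma-like cells 1 rose and 3 fell (28.6% and 29.7%), and in CAF-like against immune-like cells 1 rose and none fell (21.9% and 22.1%). In the last, edgeR and DESeq2 each called 0 members lower, and 0 were lower at an unadjusted p under 0.05. The falls in both host classes against melanoma-like cells include Ccne1, which passed the filter on low counts through the melanoma-like sums.

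Ccnd2 was low in immune-like cells. It stood at 474 ± 51.6 CPM (397, 457 and 558) in melanoma-like, 408 ± 90.2 (294, 374 and 548) in CAF-like and 141 ± 71.7 (35.7, 142 and 248) in immune-like cells. Immune-like cells did not overlap with the other 2 classes, and the log2 difference was −1.64 ± 0.180 (adjusted p = 9.55e-09) from melanoma-like cells and 1.40 ± 0.191 (adjusted p = 5.5e-07) for CAF-like over immune-like cells, each in 8 of 8 tumours. Melanoma-like and CAF-like cells were not separated (−0.23 ± 0.149, adjusted p = 0.168, CAF-like higher in 3 of 8).

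Ccnd3, the D-type cyclin of many blood cells, ran the other way. It stood at 54.3 ± 4.92 CPM (47.4, 54.8 and 62.0) in melanoma-like, 84.7 ± 20.02 (62.4, 75.7 and 114) in CAF-like and 83.7 ± 21.3 (66.0, 75.6 and 132) in immune-like cells. At this scaling both host classes were above the melanoma-like cells of their own tumour in 8 of 8 tumours and overlapped with each other. In plain CPM the CAF-like cells of Atf4D/D replicate 2 stood at 53.9, below the pooled 56.7 of melanoma-like cells. The gap between these classes thus depends on the scaling. The log2 differences were 0.58 ± 0.125 (adjusted p = 2.41e-04) and 0.66 ± 0.149 (adjusted p = 4.21e-04). Without host cells rich in melanoma markers, the value for immune-like cells was 0.37 ± 0.171 (adjusted p = 0.0827) and no longer passed. Ccnd1 stood at 126 ± 13.7, 133 ± 70.3 and 170 ± 73.4 CPM, with host tumours from 49.6 to 262 CPM, and was not called (−0.01 ± 0.205, adjusted p = 0.9752, and 0.41 ± 0.222, adjusted p = 0.118).

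Cdk1 was lower in both host classes. It stood at 168 ± 15.96 CPM (138, 170 and 185) in melanoma-like, 115 ± 22.4 (91.6, 112 and 161) in CAF-like and 112 ± 55.8 (22.0, 105 and 226) in immune-like cells. The log2 differences were −0.56 ± 0.131 (adjusted p = 5.72e-04, lower in 8 of 8 tumours) and −0.56 ± 0.151 (adjusted p = 0.00241, lower in 7 of 8), with overlapping ranges. Ccne1 stood at 29.3 ± 2.25, 17.5 ± 7.61 and 9.98 ± 12.0 CPM (−0.72 ± 0.240, adjusted p = 0.0106, and −1.36 ± 0.355, adjusted p = 0.00182), each lower in 7 of 8 tumours. Ccne1 rested on 62 UMIs in CAF-like and 18 in immune-like cells, and passed the filter on low counts through its level in melanoma-like cells. Its falls are thus a description and not a test. Ccnb1 fell in CAF-like cells (51.6 ± 26.6 against 82.3 ± 11.2 CPM, −0.61 ± 0.187, adjusted p = 0.00599) and was at 53.7 ± 19.2 CPM in immune-like cells (−0.49 ± 0.224, adjusted p = 0.0638). Without Atf4D/D replicate 1 the call in CAF-like cells was lost (−0.45, adjusted p = 0.0542). Ccna2 (57.2 ± 7.12, 42.2 ± 25.5 and 50.6 ± 42.7 CPM) and Ccnb2 (82.1 ± 8.84, 62.4 ± 35.9 and 52.2 ± 21.7 CPM) were not called in any class.

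Transcripts of tumour cells were also found in the host cells, and their part in these host values was not tested beyond what follows. The 10 melanoma markers stood in CAF-like cells at 7.28% to 34.1% (median 20.4%) and in immune-like cells at 7.59% to 41.7% (median 18.5%) of their level in the melanoma-like cells of the same tumour. The markers were uneven within the classes. They stood at 10,597 CPM in 81 CAF-like and 13,505 CPM in 34 immune-like cells, against 659 to 1876 CPM in the other host subclusters. These percentages are thus those of whole class sums that include such cells. If all UMIs of a member in host cells came over at that rate, the UMIs counted would be 2.10 to 5.67 times what that gives in CAF-like cells and 1.25 to 6.003 times in immune-like cells. Ccnd3 stood farthest above that rate in both (5.67 and 6.003 times), and Ccnd2 in immune-like cells (1.25 times) and Ccne1 in immune-like cells (1.49 times) nearest to it. Melanoma marker counts were over 10% of the level in melanoma-like cells in 381 of 898 immune-like and 141 of 734 CAF-like cells. Leaving those cells out left 2 of 8 members called in immune-like against melanoma-like cells. Scaling bears on the direction counts too. With plain library sizes in place of TMM, the median gene moved by −0.23 in CAF-like and −0.31 in immune-like cells. At that scaling 1 member was called higher and 6 lower in CAF-like, and 1 higher and 5 lower in immune-like cells. The counts of both alternatives are given without the share of all genes called, so they do not set the members apart.

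Of the pathway genes, 21 could be tested between classes. In CAF-like cells 4 rose and 7 fell against melanoma-like cells (32% and 32.5% of all genes), with Cdk6 at 1.05 and Cdk2 at −1.68, and in immune-like cells 3 rose and 5 fell (28.6% and 29.7%), with Cdk6 at 2.69, Cdkn1a at 1.37, Cdk2 at −1.43 and Cdk4 at −0.86. Cdk6, a kinase partner of the D-type cyclins, was thus higher in both, and lower in CAF-like than in immune-like cells (−1.65). Between those, 3 rose and 3 fell (21.9% and 22.1%), with the p53 target Ccng1 at 0.90.

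Host subclusters spread far wider than the classes. They are named by their leading genes, and their values are pooled over tumours as plain CPM with exact 95% Poisson intervals that cover counting error only. A subcluster of 37 immune-like cells led by Cdc25c and Aspm, with all 9 macrophage markers (25,227 CPM together), held Cdk1 at 331 CPM (244 to 439, 48 UMIs), Ccnb1 at 241 (168 to 336) and Ccna2 at 200 (134 to 287). The 280 cells led by Fcna and Vcam1, with the same markers at 26,732 CPM, held Cdk1 at 65.5 (47.9 to 87.3), Ccnb1 at 28.5 (17.4 to 44.0) and Ccna2 at 22.8 (13.0 to 36.98). The former were gathered by cell cycle genes, so this is a description of cycling macrophage-marked cells and not a test. Ccnd2 was low in both, at 41.4 and 64.1 CPM, and Ccnd1 was at 211 (178 to 247) in the cells led by Fcna and Vcam1.

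Among the other immune-like cells, 82 T/NK-like cells held Ccnd2 at 214, Cdk1 at 124 and Ccna2 at 124 CPM (61.8 to 222). Their Ccnd1 (22.5 CPM) and Ccnb1 (11.3 CPM) rested on very few UMIs and do not set these genes apart. Ccnd3 was highest in 40 dendritic-like cells (289 CPM, 162 to 477) and 25 cells led by Clec9a (247, 123 to 441), with wide and overlapping intervals, and at 124 (90.3 to 167) in 307 cells led by Dmkn and Hp. By state, 633 of 898 immune-like and 549 of 734 CAF-like cells had neither score positive.

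In the stroma the D-type cyclins exchanged places between subclusters. The 63 cells led by Myh11 and Rgs5, with 5 of 5 pericyte markers, held Ccnd1 at 554 CPM (451 to 673), and the 33 endothelial-like cells at 640 (488 to 824, 60 UMIs). Few tumours gave most of these cells. Of the former, 22 came from Atf4wt/wt replicate 2 and 17 from Atf4D/D replicate 4, and of the latter 15 from Atf4wt/wt replicate 1. In the 165 cells led by Grem1 Ccnd1 was at 68.5 and Ccnd2 at 580 CPM (520 to 644), against 297 in the 328 cells led by Cxcl9 and Lrrc15 and 64.0 (23.5 to 139) in endothelial-like cells. Cdk1 was at 230 CPM (166 to 311) in the cells led by Myh11 and Rgs5 and at 98.8 (84.4 to 115) in those led by Cxcl9 and Lrrc15, and at 16.7 (8.01 to 30.7) in those led by Grem1 and 22.7 (10.9 to 41.7) in 97 cells led by Cxcl13 and Pi16. Ccnb1 was likewise low in the last 2, at 8.35 and 18.1 CPM. Ccne1 and Ccne2 had 0 UMIs in endothelial-like cells, which allows up to 32.0 CPM (3 counts). Another 81 CAF-like and 34 immune-like cells formed subclusters with all 10 melanoma markers at 10,597 and 13,505 CPM, against 659 to 1876 CPM in the other host subclusters.

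One melanoma-like cluster of 3505 cells was led by hypoxia genes such as Car9 and Bnip3, and the last comparison set cells in the top tertile of a 20-gene hypoxia score against the bottom tertile of the same state and tumour. In neither state 1 of 8 members tested rose and 5 fell, where 27.5% of 10,244 genes rose and 26.7% fell. The largest fall was that of Ccnb2, from 51.6 ± 11.4 CPM (33.5, 54.2 and 64.0) in the bottom tertile to 21.3 ± 5.19 (14.9, 22.2 and 27.6) in the top tertile, without overlap (−1.27 ± 0.110, adjusted p = 5.7e-09). Ccnb1 fell from 17.99 ± 5.17 to 9.42 ± 2.15 CPM (−0.94 ± 0.114, adjusted p = 7.28e-07), and Ccne1 from 14.7 ± 0.904 (13.8, 14.5 and 16.3) to 9.32 ± 1.37 (7.90, 9.20 and 12.2), also without overlap (−0.66 ± 0.093, adjusted p = 4.77e-06). All 3 were lower in 8 of 8 tumours.

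Smaller changes were those of Cdk1 (30.5 ± 4.93 to 23.4 ± 4.04 CPM, −0.38 ± 0.089, adjusted p = 0.00127, lower in 8 of 8), Ccna2 (6.52 ± 2.06 to 5.003 ± 0.982 CPM, −0.40 ± 0.142, adjusted p = 0.0234, lower in 6 of 8) and Ccnd3 (47.7 ± 4.98 to 54.0 ± 5.24 CPM, 0.18 ± 0.054, adjusted p = 0.00681, higher in 8 of 8). The call on Ccna2 was lost with DESeq2 (adjusted p = 0.169) and without Atf4wt/wt replicate 2, Atf4D/D replicate 3 or Atf4D/D replicate 4 (adjusted p = 0.0517, 0.0827 and 0.0751), and that on Ccnd3 with DESeq2 (adjusted p = 0.0571) and with plain library sizes (0.05, adjusted p = 0.457). Ccnd1 (0.11 ± 0.058, adjusted p = 0.12) and Ccnd2 (0.05 ± 0.035, adjusted p = 0.214) were not called.

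In G2M-only cells 2 of 7 members tested rose and none fell (15.9% and 14% of 7582 genes), by edgeR and by DESeq2, with 0 lower at an unadjusted p under 0.05. Cdk1 was at 345 ± 62.6 CPM (281, 334 and 451) in the top and 271 ± 38.0 (221, 271 and 344) in the bottom tertile (0.34 ± 0.066, adjusted p = 1.61e-04), and Ccnd2 at 387 ± 37.4 against 314 ± 53.9 CPM (0.31 ± 0.055, adjusted p = 4.31e-05). Both were higher in 8 of 8 tumours, with overlapping ranges. The B-type cyclins of the same cells were not called, with Ccnb1 at 0.05 ± 0.067 (adjusted p = 0.608) and Ccnb2 at −0.06 ± 0.069 (adjusted p = 0.541). Whether the effects differ between the 2 states was not tested.

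The tertiles differ in which clusters they hold. The cluster led by Cenpa, Cdkn3 and Cdc20, with high Ccnb2 and low Cdk1, made up 11.8% of the bottom and 0.385% of the top tertile in neither state, and 59.3% and 26.0% in G2M only. The hypoxic cluster led by Nppb, Espn and Pkp2 made up 0.808% and 60.3% in neither state. The mean G2M score was −0.244 in both tertiles there, but the tertiles were not alike in other ways. In neither state the mean S score was −0.127 in the bottom and −0.139 in the top tertile. Cells near a cut, by the width given above, made up 13.8% of the bottom and 5.47% of the top tertile. The median UMIs per cell averaged 9333 and 8499 over the tumours. The part of these differences in the falls was not tested. In an alternative chosen after seeing the data, the cells of the cluster led by Cenpa were left out. In neither state Ccnb2 (−0.84 ± 0.114, adjusted p = 2.66e-06), Ccnb1 (−0.41 ± 0.136, adjusted p = 0.0158), Ccne1 (−0.67, adjusted p = 7.29e-06) and Cdk1 (−0.33, adjusted p = 0.00372) were still lower, Ccnd3 higher (0.25, adjusted p = 5.47e-04), and Ccna2 turned to 0.30 ± 0.169 (adjusted p = 0.141). In G2M only the rise of Cdk1 turned into a fall (−0.23 ± 0.079, adjusted p = 0.0222). Ccnb1 (−0.32 ± 0.079, adjusted p = 0.00174) and Ccna2 (−0.34 ± 0.093, adjusted p = 0.00427) then fell too, while Ccnd2 stayed higher (0.32, adjusted p = 4.62e-04) and Ccnd1 passed (0.35, adjusted p = 0.0254). The direction of Cdk1 in hypoxic G2M-only cells thus depends on whether the cells of that cluster are counted.

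**Figure D4:**
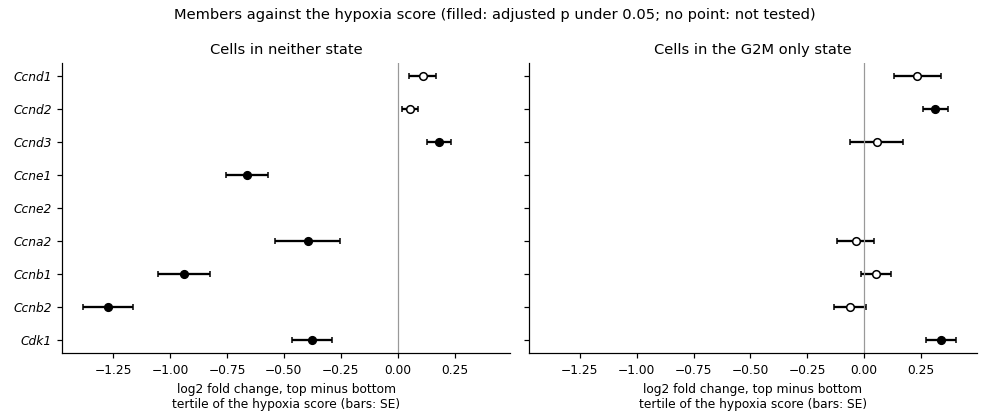
Log2 difference of each member between the top and the bottom tertile of the hypoxia score, within melanoma-like cells in neither state and in G2M only, with the SE over 8 tumours as bars and filled points where the adjusted p is under 0.05. Ccnb2, Ccnb1 and Ccne1 lie farthest below 0 in neither state, and Cdk1 and Ccnd2 above 0 in G2M only.

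Of 38 pathway genes tested in neither state 10 rose and 8 fell, near the shares of all genes (27.5% and 26.7%), with Ccng2 at 2.37, Cdkn1a at 1.25, Cdkn1b at 1.04 and Wee1 at 1.01 among those that rose and Cdkn2c at −0.96 and Cdc25a at −0.67 among those that fell. Of 34 in G2M only 8 rose and 5 fell (15.9% and 14% of all genes), with Cdkn1a at 2.35, Wee1 at 1.41, Cdkn1b at 0.96 and Fbxo5, an inhibitor of the anaphase-promoting complex, at 0.78. Of 4 inhibitors tested 3 rose and 1 fell in neither state, and 3 rose in G2M only.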

How the data were processed

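Droplet libraries of 8 B16F10 tumours were analysed, 4 from Atf4wt/wt and 4 from Atf4D/D hosts, grouped by the sample labels, in which each library is a separate mouse. UMI counts per gene and barcode, not normalized, were deposited separately for every tumour. They had been made by the authors with Cell Ranger on GRCm38. The submitters' processing notes name Cell Ranger 3.1.0 and Seurat 3.2.1. The labels name the V3 kit and an age of 12 weeks, and the study's methods differ on both. Barcodes above the mitochondrial limit, 8124 and 4892 by genotype, were still in the deposited counts.

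Cells passed with 200 to 5000 genes and a mitochondrial share of no more than 7.5% (Seurat 5.3.0, R 4.3.3), and genes if at least 3 cells held them. No doublet caller was run, and host cells over a melanoma marker limit were left out in an alternative. Clusters (17, at a resolution of 0.7) were made without the 9 members and named by their leading genes and markers. Clusters with 0.109 to 0.180 of their tumours' median UMIs and no host markers among their leading genes stayed unnamed. Scores followed Seurat's cell cycle lists without the members, and the hypoxia score a list of 20 genes.

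Counts were summed per tumour and class, state or hypoxia tertile with at least 10 cells, and tested with edgeR 4.0.16 (filterByExpr, TMM, quasi-likelihood test, Benjamini-Hochberg adjustment over all genes tested, threshold 0.05), with the tumour as a block for comparisons within tumours. Levels are CPM after TMM scaling within each fit, so the same cells can differ slightly between comparisons, and subcluster and sector levels are plain CPM. The tests were tried on simulated counts with known changes. Shares of cells were compared by exact permutation tests. Alternatives were DESeq2 1.42.0, no filter, other mitochondrial and gene limits, thinning to 6000 UMIs, a score cut of 0.1, phases by the higher score, sex as a covariate, a replicate block, leaving out each tumour, and, chosen after seeing the data, library sizes without TMM and hypoxia tertiles without 1 cluster. Replicates of a genotype differed beyond counting noise, with a chi-square per gene of 11.57 to 46.23 over 12 pairs. Intervals and limits from counts cover counting error only.

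The genes named are the 9 members, up to 4 genes per pathway list with the largest change among those called or with calls that differ between comparisons, and the 3 genes most like each member (r of log2(CPM + 1) after taking off each tumour's mean, sums of at least 20 cells, genes with a mean of at least 20 CPM). The members and lists were chosen with earlier results of these data known. Further software was limma 3.58.1, Matrix 1.6.5, version 1.17.8 of data.table, matplotlib 3.10.9 and Python 3.11.15. The study's other experiments were not analysed here.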

Additional observations from a re-analysis of the deposited data

Results flagged for a closer look

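In 9 of 62 groups of 4 tumours, 1 tumour stood far from the other 3 by Dixon's criterion, where about 3.1 would by chance. In melanoma-like cells Ccnd1 was at 164.5 CPM in Atf4wt/wt replicate 4, against 127.2 to 131.4 in the other Atf4wt/wt tumours. Atf4D/D replicate 2 was low in Ccnb1 (68.0 CPM, others 93.5 to 97.8) and Ccnb2 (75.5 CPM, others 92.3 to 93.6), and its thinned share of melanoma-like cells with both scores positive was 19.0%, against 25.1% to 26.0% in the other Atf4D/D tumours. In CAF-like cells Ccnd3 was at 110.03 CPM in Atf4wt/wt replicate 3 (others 68.3 to 72.3). In immune-like cells of Atf4wt/wt replicate 4, Ccnd3 was at 129.6 CPM (others 74.1 to 79.9) and Ccne2 at 4.00 CPM, with 0 in the others. In immune-like cells of Atf4D/D replicate 3, of which there were 35, Ccna2 was at 131.4 CPM (others 25.1 to 36.6) and Cdk1 at 236.7 CPM (others 94.7 to 103.2). The effects in different sets of cells were not tested against each other.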

How the results depend on the processing

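With another tool, filter, scaling, cell limit or 1 tumour left out, 618 of the refits of called members kept direction and call, 8 lost the call and 3 reversed. Members called ranged from 7 to 9 of 9 in the comparisons between states, and between hosts 0 were called in every refit. The replicate numbers do not pair the tumours (correlations of −0.062, −0.400, −0.246 and −0.308), and with the replicate block 0 members were called between hosts, with Ccnb1 in immune-like cells turning to 0.11. Over all genes, the calls between hosts moved with the tool and the filter. In melanoma-like cells 4 with edgeR against 79 higher and 40 lower with DESeq2 and 33 and 13 without the filter, outside the cycle 5 against 34 and 33 (DESeq2) and 32 and 18, in the cycle 0 against 68 and 36 and 73 and 42, and without the filter 62 and 38 in CAF-like (3 with edgeR and the filter) and 57 and 26 in immune-like cells (1).

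Counts of members that moved were 8 without the filter and 7 with library sizes for CAF-like against melanoma-like cells (4 as reported), 2 without host cells over the melanoma marker limit for immune-like against melanoma-like (4) and for CAF-like against immune-like cells (1), and 5 without the cells of the cluster led by Cenpa for hypoxia in G2M only (2). Leaving out 1 tumour gave 2 to 5 for CAF-like against melanoma-like and 1 to 2 for CAF-like against immune-like cells. The counts at these settings are given without the share of all genes called, so they do not set the members apart.

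Other log2 differences changed sign. With phases by the higher score, G2M against neither gave 0.064 for Ccnd3 and 0.58 for Ccne1, a called fall that became a called rise (edgeR's adjusted p = 1.04e-09). With at most 5% mitochondrial counts the host difference was −0.027 for Ccnd3 in CAF-like cells, and −0.16 for Ccne1 and 0.0043 for Cdk1 in the cycle. With library sizes hypoxia in neither state gave −0.079 for Ccnd2 and −0.023 for Ccnd1, and in G2M only −0.027 for Ccnb1 and −0.022 for Ccnd3. Without the filter the host difference of Ccnb1 in immune-like cells was 0.021, and Ccnd3 in CAF-like against immune-like cells 0.012. Without host cells over the marker limit Ccnd3 between hosts in CAF-like cells was −0.084, Ccna2 in immune-like against melanoma-like cells 0.11, and in CAF-like against immune-like cells Ccnd3 was 0.31 and Cdk1 −0.20. Without the cluster led by Cenpa hypoxia gave 0.30 for Ccna2 in neither state, where the fall had been called and the new value was not, and −0.026 for Ccnd2. In G2M only it gave −0.23 for Cdk1, a called rise that became a called fall, and −0.32 for Ccnb1, now called. The host difference in the share in neither state was −0.131 points without thinning. The cause was not tested.

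Leaving out 1 tumour turned signs within these ranges. Between hosts in melanoma-like cells they were −0.069 to 0.044 for Ccne1 and −0.11 to 0.021 for Cdk1, outside the cycle −0.087 to 0.25 for Ccne2 and −0.011 to 0.30 for Ccnb1, and in the cycle −0.031 to 0.097 for Ccne1. In CAF-like cells they were −0.12 to 0.78 for Ccnd1, −0.11 to 0.21 for Ccnd3 and −0.62 to 0.16 for Ccnb1. In immune-like cells they were −0.026 to 0.54 for Ccnd1, −0.35 to 0.033 for Ccnd3, −0.33 to 0.20 for Ccnb1, −0.049 to 0.51 for Ccnb2 and −0.054 to 0.42 for Cdk1. For CAF-like against melanoma-like cells Ccnd1 ranged from −0.24 to 0.13, and for CAF-like against immune-like cells Ccna2 from −0.26 to 0.060, Ccnb1 from −0.34 to 0.069, Ccnd3 from −0.16 to 0.077 and Cdk1 from −0.11 to 0.11. For hypoxia in G2M only Ccna2 ranged from −0.098 to 0.035 and Ccnd3 from −0.022 to 0.10. Host differences in shares ranged from −2.45 to 2.62 points (neither), −1.66 to 0.11 (S only) and −1.54 to 0.84 (both scores). None of these differences passed the test in any of these refits.

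The smallest sums, 10 CAF-like and 35 immune-like cells in Atf4D/D replicate 3, limit what host cells can show, and Ccne2 was too low to test between hosts there. Library and mouse cannot be told apart.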

Other observations

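Cells left out for holding more than 5000 genes numbered 497, of which 496 were melanoma-like by their profile, and 91.5% of them were in one of the 3 cycling states, against 50.7% of the melanoma-like cells kept. Their pooled levels were 292 CPM for Cdk1, 146 for Ccnb1, 108 for Ccnb2 and 99.7 for Ccna2, against 176, 86.7, 86.6 and 60.4 CPM in the kept cells. Ccnd2 was at 454 against 488 CPM and Ccne1 at 29.8 against 30.4 CPM. These are pooled values without a test.

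The 2812 unnamed cells with few UMIs carried the members too, with Ccnd2 at 565 CPM (exact 95% Poisson interval 543 to 587), Cdk1 at 132 (122 to 143), Ccnb1 at 58.2 (51.5 to 65.6) and Ccne1 at 31.3 (26.4 to 36.8). Cdk1 was among the 10 leading genes of 1 of these clusters, whose cells had 0.109 of their tumours' median UMIs and a median of 0.17% mitochondrial counts.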
